A study of Mus musculus with 12 samples.

Results

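The mitochondrial respiratory chain was followed in 2 skeletal muscles of dysferlin-deficient and control mice. Members were chosen by name: every probe set (a group of array probes read as 1 value) whose single annotated gene symbol begins with Nduf, Uqcr, Cox4 to Cox8 or Atp5, or is Sdha, Sdhb, Sdhc or Sdhd. The rule used no measured value. It gave 71 of the 8251 named genes, read by 98 of 12422 probe sets. Complex I had 31 genes (42 probe sets), complex II 4 (4), complex III 7 (7), complex IV 15 (23) and complex V 14 (22). Another 10 probe sets that carry several symbols, one of them a respiratory chain gene, were not members. The prefix rule also took in the complex I assembly factors Ndufaf1 and Ndufaf4 and the supercomplex factor Cox7a2l, which are counted with complexes I and IV.

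Total RNA was hybridised to 12 single-channel arrays. Mice aged 3 weeks of the strain C57BL/10-SJL.Dysf, labelled Dysf -/- and called Dysf_null here, carry the mutant dysferlin gene of SJL mice. Their controls were C57BL/10 mice, labelled Dysf +/+ and called Control. A QF and a TA muscle sample gave 4 groups of 3 arrays, and nothing states that the 3 came from separate mice, so each p-value reflects variation among arrays that could be wholly technical.

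The respiratory chain sits in the inner mitochondrial membrane. Complexes I and II pass electrons from NADH and succinate to coenzyme Q, complex III passes them to cytochrome c, complex IV passes them to oxygen, and complex V uses the resulting proton gradient to make ATP. Most subunits are encoded in the nucleus, and several complex IV subunits come as separate genes for striated muscle and for other tissues. Complex II is also an enzyme of the citric acid cycle, and all of its subunits are nuclear.

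The arrays carried abundant fast muscle RNA: the fast myosin heavy chain Myh4 (main probe set) lay between 13.94 and 14.33 on the log2 intensity scale on every array. Both QF arrays numbered 2 stood apart, correlating with the remaining arrays at a median of 0.8995 in Dysf_null and 0.8919 in Control, while every other array reached 0.9416 to 0.9682. No array held a probe set named for any of the 13 mitochondrially encoded subunits, so the account is of nuclear genes.

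Values are log2 of quantile-normalized intensity, with a floor at the 25th percentile (log2 4.53). A probe set was measured where it passed the floor on at least 3 arrays, which 91 of the 98 did, and all 71 genes kept at least 1 measured probe set. The 7 others were 1 probe set each of Ndufa1, Ndufaf4, Ndufb7, Cox6b2 and Cox8c and 2 of Ndufb2. Respiratory chain probe sets were detected more often than most: 79.6% were above the floor on all 12 arrays, against 56.9% of all probe sets. Their median standard deviation (SD) between arrays of a group was 0.18, against 0.39 over the 10331 probe sets tested. Differences are log2 differences of group means ± SE of a limma fit to all 12 arrays, and a call is an adjusted p (Benjamini-Hochberg over the 10331) under 0.05.

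Dysferlin deficiency came with no called change in any respiratory chain gene. In QF, 0 of 91 members were called by limma (0.455% of all probe sets were), and 1 had an unadjusted p under 0.05 (1.10%, against 6.77% of all). In TA, 0 of 91 were called (0.407% of all), and 0 had an unadjusted p under 0.05, against 4.82% of all. Averaged over both muscles, 0 of 91 were called (1.09% of all) and 2 had an unadjusted p under 0.05 (2.20%, against 7.63%). All 3 counts of calls were also 0 under each of the 23 or 24 other settings run.

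The sizes of the genotype differences were small, and for many members their error was small too. The 95% confidence interval lay wholly within 1.5-fold of no difference for 60 of 91 members in QF (65.9%, against 14.6% of all probe sets), 59 in TA (64.8%, against 16%) and 74 for the average (81.3%, against 37.3%). A member outside these counts may differ by more than that. Of the 15 genotype differences with the smallest p per complex and comparison, 13 moved by over 1.5 times when some array was left out, and 0 changed sign. In bulk tissue, fewer cells of a type and less RNA per cell cannot be told apart.

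Medians lay slightly below 0. The median member difference was -0.07 in QF and -0.06 in TA, against -0.01 and -0.003 over all probe sets, with 63 and 59 of the 91 members lower in Dysf_null. In TA this median depended on the scaling: it was -0.10 on the authors' own scaling and -0.20 with arrays scaled to a common median. Leaving out 1 array moved both: the QF median was -0.0314 without Control QF 1, and the TA median -0.0351 without Control TA 3. No member of complexes I to V was called on any of these scalings.

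**Figure D1:**
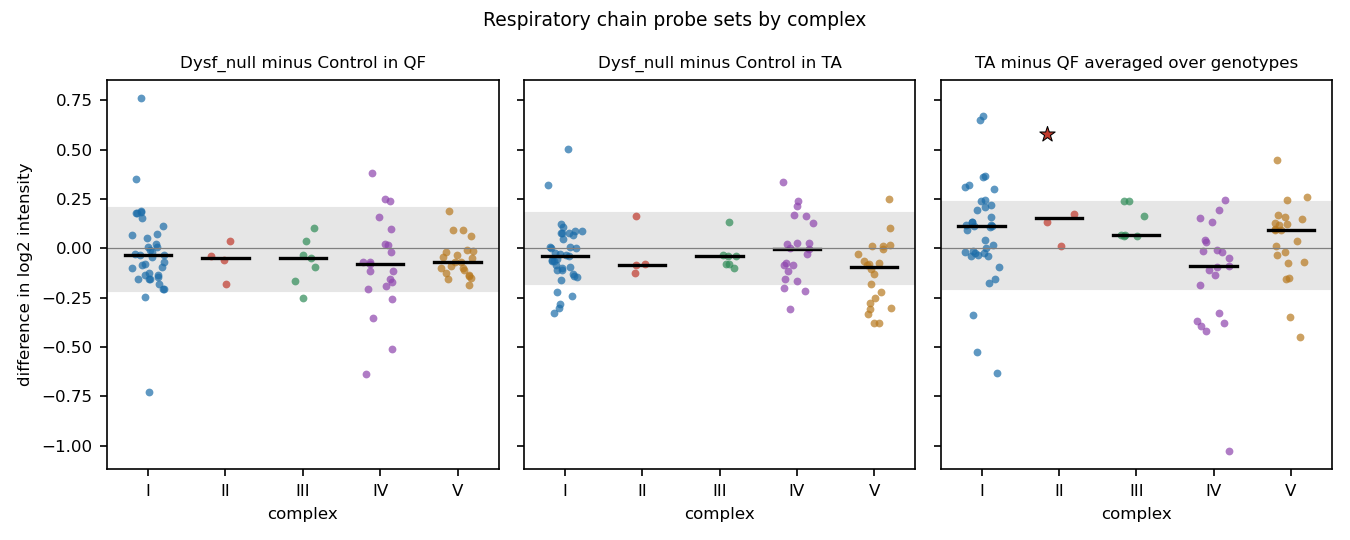
Difference in log2 intensity for each measured respiratory chain probe set (points), by complex, in 3 comparisons. Black lines are medians, grey bands span the quartiles of all 10331 probe sets tested, and the star is the 1 called member, Sdhd. Genotype differences cluster near 0, and between muscles complex IV has a median of -0.09 while complex I has 0.11.

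In complex I, the NADH dehydrogenase, 23 of 37 members were lower in Dysf_null QF and 22 in Dysf_null TA, with medians of -0.03 and -0.04. Ndufb10, an accessory subunit of the membrane arm, had the smallest p in QF. It read 12.09, 11.88 and 11.88 in Dysf_null QF and 11.81, 11.68 and 11.82 in Control QF. The groups did not overlap, but the difference of 0.18 ± 0.10 was not called (limma adjusted p = 0.899). In TA, Ndufv2, an iron-sulfur subunit of the electron input arm, had the smallest p by one of its probe sets, which differed by -0.28 ± 0.21 (limma adjusted p = 1). Ndufa12, an accessory subunit, had the smallest p for the average (0.33 ± 0.18, limma adjusted p = 0.779), but all 6 Control arrays and 2 of the 6 Dysf_null arrays were at the floor.

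In complex II, the succinate dehydrogenase, Sdha, the flavoprotein subunit, had the smallest p in QF, with a difference of -0.18 ± 0.15 (limma adjusted p = 0.984). In TA it was Sdhc, a membrane anchor, at 0.17 ± 0.12 (limma adjusted p = 1), which turned to -0.00252 with common-median scaling. All 4 subunits had intervals within 1.5-fold in both muscles.

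In complex III, the cytochrome bc1 complex, Uqcrc2, a core subunit, had the smallest p in QF (-0.25 ± 0.18, limma adjusted p = 0.984), and its difference was -0.06 without Control QF 1 and -0.10 without Dysf_null QF 2. Uqcrh, the hinge protein, had it in TA (-0.10 ± 0.12) and Uqcrb, a small subunit, for the average (-0.12 ± 0.09). Of 7 members, 5 were lower in Dysf_null QF and 6 in Dysf_null TA, none of them called.

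In complex IV, cytochrome c oxidase, 2 members had the only unadjusted p-values under 0.05 between genotypes. Cox6b1, the general isoform of a subunit facing the intermembrane space, read 7.39, 6.35 and 7.14 in Dysf_null QF and 7.94, 7.45 and 7.40 in Control QF. All 3 Dysf_null arrays were below all 3 Control arrays, with a difference of -0.64 ± 0.28 (limma adjusted p = 0.713). The lowest value was on Dysf_null QF 2, which stood apart, and without that array the difference was -0.33; without both QF arrays numbered 2 it was -0.41. In TA the same probe set differed by -0.31 ± 0.28, with overlap. Cox6a1, the non-muscle isoform of subunit 6a, was higher by 0.24 ± 0.13 in QF and 0.22 ± 0.13 in TA, and by 0.23 ± 0.09 on average (limma adjusted p = 0.526).

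In complex V, the ATP synthase, 18 of 22 members were lower in Dysf_null QF and 17 in Dysf_null TA, with medians of -0.07 and -0.09. Atp5j, which encodes coupling factor 6 of the stalk, read 12.21, 12.17 and 12.15 in Dysf_null TA and 12.67, 12.32 and 12.37 in Control TA. The groups did not overlap, and the difference was -0.28 ± 0.13 (limma adjusted p = 1), or -0.17 without Control TA 1. Dysf_null arrays lay wholly below Control for 5 of 91 members in TA (6.87% of all probe sets) and 2 in QF (3.45% of all). They lay wholly above for 0 members in TA (6.92% of all) and 2 in QF (4.08% of all).

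Cell type markers moved between genotypes beside these values. Of the red cell list, 5 of 7 genes were measured by 5 probe sets, with a positive difference for 5 in TA and 4 in QF. By limma 4 were called higher in TA and 1 in QF, for Bpgm, a QF call lost in 18 of 24 other settings. The TA call was lost in 11 of 24 for Hba-a1, 9 for Car2, 1 for Bpgm and 0 for Alas2. On the authors' scaling 3 were called in TA and 0 in QF, and with common-median scaling 1 and 0. The summed intensity of the list was 21240 to 27520 in Dysf_null QF against 15900 to 16200 in Control QF, and 22840 to 26220 against 11810 to 15760 in TA. The fibroblast list summed to 30630 to 41060 against 20380 to 26260 in QF and 31770 to 44290 against 23800 to 31400 in TA. Of its 11 probe sets, 1 was called higher in QF, for the collagen gene Col3a1, and 0 in TA by limma, where 3 had an unadjusted p under 0.05.

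The macrophage list summed to 2041 to 2358 in Dysf_null QF against 1504 to 1845 in Control QF, and to 2104 to 2173 against 1824 to 1973 in TA. In both muscles 7 of its 8 probe sets had a positive difference. By limma 0 were called in QF, with 3 at an unadjusted p under 0.05, while in TA Cd68, for a lysosomal protein of macrophages, fell (-1.27 ± 0.19, limma adjusted p = 0.0104). This Cd68 call was lost in 5 of 24 other settings. Cd68 was the 1 probe set of the list with a negative difference in TA.

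Neutrophil markers moved in opposite directions in the 2 muscles. The list of 5 probe sets summed to 173.4 to 384.9 in Dysf_null QF against 504.4 to 583.2 in Control QF, but to 764 to 952.2 against 192.3 to 297.4 in TA, with median differences of -1.26 and 2.02. In QF S100a9, for a calcium-binding protein abundant in neutrophils, fell (-1.82 ± 0.33, limma adjusted p = 0.028), a call lost in 13 of 24 other settings. In TA it rose (2.74 ± 0.33, limma adjusted p = 0.00179), as did its partner S100a8 (2.32 ± 0.38, limma adjusted p = 0.0165). Of 24 other settings, the TA call was lost in 0 for S100a9 and in 6 for S100a8.

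The main probe set of Ucp1, the uncoupling protein of brown fat mitochondria, was higher in Dysf_null QF (1.63 ± 0.27, limma adjusted p = 0.0181), with 7.45, 7.62 and 7.61 against 6.21, 5.71 and 5.86 in Control QF. The brown fat list summed to 1135 to 1343 against 911.6 to 972.7 there. Myl2, the slow fibre myosin light chain, was called higher in Dysf_null on average (0.46 ± 0.08, limma adjusted p = 0.0174). These 2 calls were lost in 7 of 24 and 6 of 23 other settings. The slow fibre list was split: of its 14 probe sets, 8 had a positive and 6 a negative average difference, with a median of 0.06. In QF 8 were positive and 6 negative (median 0.13), and in TA 6 and 8 (median -0.02). The fast fibre list summed to 156000 to 159100 in Dysf_null QF against 167000 to 168000 in Control QF. In TA it summed to 143600 to 149700 against 153700 to 155900. Of its 15 probe sets, 12 had a negative difference in QF and 9 in TA, and 0 were called by limma. On the authors' scaling 15 and 12 were negative, and with common-median scaling 15 and 14. The part of these cells and fibres in the member differences was not tested.

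Between the muscles, 1 respiratory chain gene was called: Sdhd, the membrane anchor subunit of complex II that helps to bind coenzyme Q, was higher in TA. In Control, Sdhd read 11.63, 11.70 and 11.75 in QF and 12.29, 12.34 and 12.37 in TA. In Dysf_null it read 11.73, 11.69 and 11.77 in QF and 12.27, 12.19 and 12.29 in TA. All 6 TA arrays lay above all 6 QF arrays, and the arrays within a group lay close together.

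The Sdhd difference was 0.64 ± 0.09 in Control (1.55-fold, limma adjusted p = 0.00444) and 0.52 ± 0.09 in Dysf_null (1.43-fold, limma adjusted p = 0.0317). Averaged over genotypes it was 0.58 ± 0.06 (1.49-fold, limma adjusted p = 0.000355). Sdhd was 1 of 91 members called higher in each, against 0.407%, 0.0968% and 0.581% of all probe sets. No member was called lower, against 0.329%, 0.203% and 0.532% of all, and calls in either direction made up 0.736%, 0.3% and 1.11% of all. The interaction called 0 of 91 members (0.0678% of all) and gave 0 at an unadjusted p under 0.05 (3.05% of all), with 0 calls in each of 24 other settings.

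The direction held in every setting run, but the calls did not. The average call was lost with common-median scaling (0.87, limma adjusted p = 0.123). The Control call was lost with the authors' scaling (limma adjusted p = 0.0895), common-median scaling (0.347), no intensity trend (0.151) and Control arrays alone (0.0887), where the difference itself was 0.76, 0.98, 0.64 and 0.64 in turn. The Dysf_null call was lost with the same kinds of change (limma adjusted p from 0.237 for Dysf_null arrays alone to 0.92 for common-median scaling) and without both QF arrays numbered 2 (0.192), with differences from 0.50 to 0.76. It was also lost without any 1 of 8 arrays, namely each of the 3 Dysf_null QF and 3 Dysf_null TA arrays and Control TA 2 and 3, with a limma adjusted p from 0.0548 to 0.188.

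**Figure D2:**
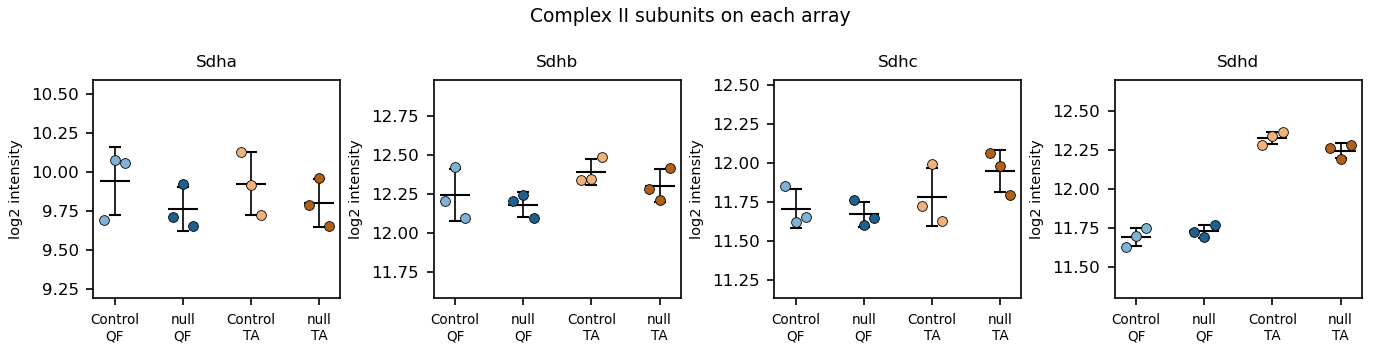
Log2 intensity of the 4 complex II subunits on each array (points) in 4 groups of 3, with the mean and SD as bars; null stands for Dysf_null. Each panel has its own axis range, and in the Sdhd panel the TA arrays, from 12.19 to 12.37, lie above the QF arrays, from 11.63 to 11.77.

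The other complex II subunits differed less between muscles. Sdhb, the iron-sulfur subunit, read 12.21, 12.42 and 12.10 in Control QF and 12.34, 12.35 and 12.49 in Control TA, with overlap. Sdha and Sdhc, the flavoprotein and the other membrane anchor, also overlapped between muscles in Control. In Dysf_null, Sdhc read 11.76, 11.61 and 11.65 in QF and 12.06, 11.98 and 11.80 in TA, with no overlap and no call. All 4 subunits had a positive average difference, with a median of 0.16, and the smallest was 0.01.

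Sdhd lies head to head with Timm8b, which encodes a carrier of proteins in the intermembrane space, with 51 bases between them on chromosome 9. Timm8b, named here after its values were seen, differed by 0.08 ± 0.13 between muscles (limma adjusted p = 0.785). The stretch between the genes (RefSeq, build GRCm38.p6, chr9:50603850-50603900, minus strand, read toward Sdhd) is shown because Sdhd was called and Timm8b was not, with the reverse complement of the ETS factor core CCGGAAG in capitals.
Sdhd upstream: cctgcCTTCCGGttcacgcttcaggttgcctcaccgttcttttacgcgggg
Further upstream, inside Timm8b (chr9:50603909-50603938, minus strand), lies the core motif of nuclear respiratory factor 1 (NRF1), shown in capitals.
Sdhd NRF1 core: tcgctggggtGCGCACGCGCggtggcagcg

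Of the 71 genes, 58 had an entry in the promoter table, and 13 motifs were searched on both strands of the 250 bases before the start. The motifs described were picked after the counts were seen. The NRF1 core was in 9 of 58 member promoters (15.5%, against 4.23% of all 27025 promoters) and the ETS core in 12 (20.7%, against 7.83%). By contrast, CAGCTG, an E-box, was in 4 (6.9%, against 14.7%). The NRF1 core takes in the 4 promoters with its palindrome (6.9%, against 0.877%). The others were the GC box GGGCGG, the CCAAT box, the general E-box CANNTG (which takes in the E-box above), the TATA box TATAAA, the nuclear receptor motif AAGGTCA with its longer ERR form, the YY1 motif AAGATGG with its longer form, and the MEF2 site by name. Their member shares ran from 0% to 63.8%, the last for the general E-box, which 69.3% of all promoters held. Promoter base composition was not compared, and a match is a description of letters.

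Of the 91 members, 18 had an unadjusted p under 0.05 in the average comparison of muscles (19.8%, against 13% of all probe sets), 14 higher and 4 lower in TA. Of the 14 higher, 10 belonged to complex I, 1 to complex II and 3 to complex V, and all 4 lower belonged to complex IV. In Control 10 had such a p (11.0%, against 9.86% of all) and in Dysf_null 8 (8.79%, against 5.72%). Apart from Sdhd none of these was called. All 3 TA arrays lay above all 3 QF arrays for 10 members in Control (8.16% of all probe sets) and 11 in Dysf_null (5.71%), and below for 2 (5.6%) and 3 (4.51%).

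**Figure D3:**
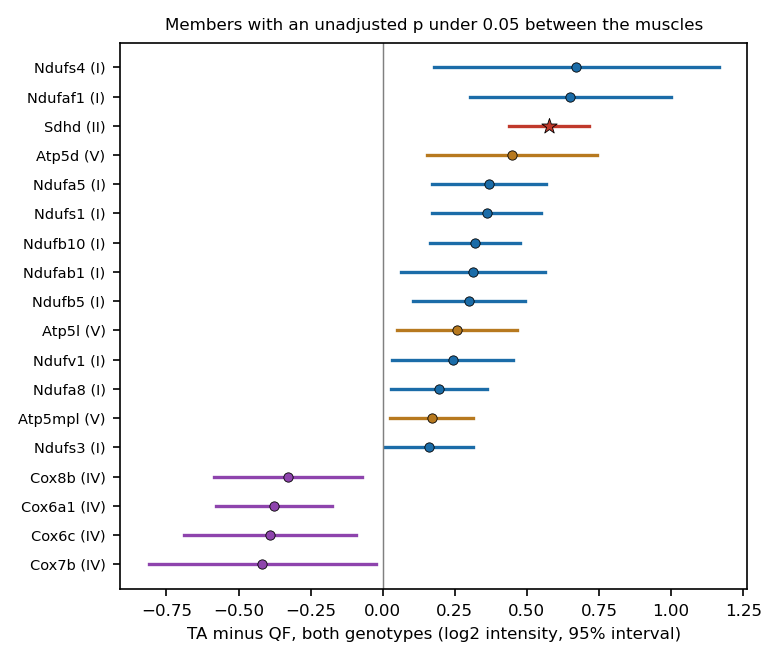
Average TA minus QF difference in log2 intensity (points) with 95% confidence intervals (lines) for the 18 members with an unadjusted p under 0.05, each labelled with its complex in parentheses and coloured by complex. The star is Sdhd, the only one called, and the 4 complex IV members lie below 0.

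In complex I, 24 of 37 members had a positive average difference, and the median was 0.11 against 0.01 for all probe sets. Ndufb10 read 11.81, 11.68 and 11.82 in Control QF and 12.20, 12.28 and 12.15 in Control TA, with no overlap. Its average difference was 0.32 ± 0.07 (limma adjusted p = 0.0584) and its other probe set lay near the floor. Ndufs1, the largest iron-sulfur subunit of the complex, differed by 0.36 ± 0.09 (limma adjusted p = 0.0745). Ndufa5, an accessory subunit, differed by 0.37 ± 0.09 (limma adjusted p = 0.0817).

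The assembly factor Ndufaf1 differed by 0.65 ± 0.16 in one probe set (limma adjusted p = 0.0828), and its other probe set pointed the opposite way. Leaving out 1 array moved the count of members called on average: 2 without Dysf_null QF 3 (Ndufaf1 and Sdhd), 3 without Control QF 3 (these and Ndufa5) and 2 without Dysf_null TA 1 (Sdhd and the complex V gene Atp5d). Across the 16 genes with several measured probe sets, the probe sets disagreed in sign for 10 in this comparison.

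In complex III all 7 members had a positive average difference, with a median of 0.07 and a range from 0.06 to 0.24, and none had an unadjusted p under 0.05. Uqcrc1, a core subunit, had the smallest p (0.24 ± 0.12, limma adjusted p = 0.404). In complex V, 14 of 22 were positive, with a median of 0.09. One of 5 probe sets of Atp5d, the delta subunit, differed by 0.45 ± 0.14 (limma adjusted p = 0.18), and Atp5l, a membrane subunit, by 0.26 ± 0.10 in one of its probe sets (limma adjusted p = 0.284).

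All 6 TA arrays lay above all 6 QF arrays for 4 of 91 members (4.4%, against 0.794% of all probe sets), namely Ndufaf1, Ndufs3, Sdhd and Atp5mpl, a small membrane subunit of complex V. Ndufs3, a core subunit of complex I, differed by only 0.16 ± 0.07 and Atp5mpl by 0.17 ± 0.07. For 0 of 91 members did all 6 TA arrays lie below all 6 QF arrays (0.716% of all). Between genotypes no member separated all 6 arrays from the other 6 in either direction, against 0.726% of all probe sets higher and 0.31% lower in Dysf_null.

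Complex IV was the only complex with a negative median between muscles: 15 of 21 members were lower in TA, with a median of -0.09. The difference between complexes was not tested. Its size and its sign depended on the scaling. On the authors' scaling the median was -0.104 and on common-median scaling it was 0.0868. Set against the median of all probe sets on the same scaling it was -0.0995, -0.0346 and -0.00318 in turn, while complex I was 0.101, 0.199 and 0.219 above it. The median of all probe sets itself was 0.0106, -0.0695 and 0.09 on these scalings.

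Subunit 6a of complex IV exists as Cox6a2 in heart and skeletal muscle and as Cox6a1 in most other tissues. Cox6a1 read 10.78, 10.52 and 10.60 in Control QF and 10.43, 10.14 and 10.22 in Control TA. It read 11.09, 10.80 and 10.71 in Dysf_null QF and 10.42, 10.47 and 10.56 in Dysf_null TA. In each genotype all TA arrays were below all QF arrays, while across genotypes the Dysf_null TA and Control QF arrays overlapped. Lower means in TA were not particular to Cox6a1. Cox7b averaged 12.64 in Control QF and 12.25 in Control TA, and 12.47 and 12.03 in Dysf_null. The main probe set of Cox6c averaged 13.58 and 13.21 in Control, and 13.47 and 13.06 in Dysf_null. Arrays of both overlapped between muscles. Of the 21 complex IV members, 6 had a positive average difference.

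The average Cox6a1 difference was -0.38 ± 0.09 (limma adjusted p = 0.0817). It was called lower in TA with array weights (-0.45, limma adjusted p = 0.0293) and with a replicate block over all arrays (-0.38, limma adjusted p = 0.0398). Cox6a2 read 13.77, 13.49 and 13.77 in Control QF and 13.55, 13.98 and 14.01 in Control TA, with overlap, and its average difference was 0.20 ± 0.10 (limma adjusted p = 0.439). The log2 ratio of Cox6a2 to Cox6a1 was therefore 0.573 higher in TA than in QF, with an SD between arrays of a group of 0.264. The ratio was not tested, and it does not show whether Cox6a1, Cox6a2 or both differed.

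**Figure D4:**
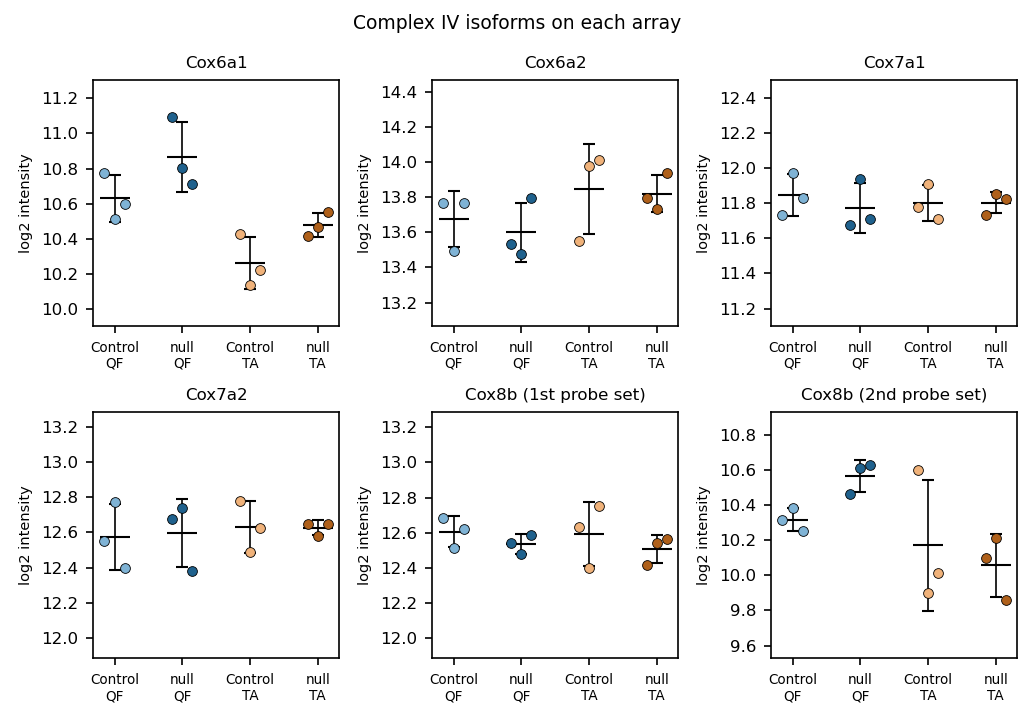
Log2 intensity of complex IV isoforms on each array (points) in 4 groups of 3, with the mean and SD as bars; null stands for Dysf_null. Each panel has its own axis range and levels are not comparable between panels; Cox6a1 lies lower in TA within each genotype, whereas Cox7a1 and Cox7a2 overlap between all groups.

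Cox7a1, the muscle isoform of subunit 7a, and Cox7a2, its partner in other tissues, overlapped between all 4 groups. Cox7a1 ranged from 11.67 to 11.97 over all 12 arrays, with an average difference of -0.01 ± 0.08 (95% interval -0.18 to 0.16), and Cox7a2 from 12.38 to 12.78, with 0.04 ± 0.09 (-0.16 to 0.24). Their log2 ratio was 0.051 lower in TA (-0.051, SD 0.164). Between genotypes Cox7a1 differed by -0.07 ± 0.11 in QF and 0.00 ± 0.11 in TA.

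Cox8b, the muscle isoform of subunit 8, had 2 probe sets that disagreed. One differed by -0.02 ± 0.08 between muscles, and the other by -0.33 ± 0.12 (limma adjusted p = 0.272). The latter read 10.46, 10.61 and 10.63 in Dysf_null QF and 10.10, 10.21 and 9.86 in Dysf_null TA, with no overlap, but 10.31, 10.38 and 10.25 in Control QF and 10.60, 9.90 and 10.02 in Control TA, with overlap. Cox8a, the general isoform, was above the floor on 4 of 12 arrays. Cox8c, known from testis, gave values from 8.55 to 9.40 in one probe set and none above the floor in the other.

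The testis isoform Cox6b2 had 2 measured probe sets that followed the arrays more than the groups. Its highest values in one probe set were 8.68 on the Control QF array numbered 2 and 8.503 on that of Dysf_null, against 4.79 to 6.31 on the other 10 arrays. These are the arrays that stood apart above. The probe set differed by -1.03 ± 0.63 between muscles (limma adjusted p = 0.496). Cox4i1, whose lung isoform was not analysed here, differed by -0.01 ± 0.11 and -0.13 ± 0.21 in its probe sets.

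The promoters of Cox6a1 and Cox8b are shown as an example with the NRF1 core and one without it, picked after the matches were seen. Of the 11 complex IV genes with an entry, Cox6a1 alone held the core within 250 bases, and the general isoforms Cox6b1, Cox7a2 and Cox8a lacked it, as did the muscle isoforms Cox7a1 and Cox8b. Cox6a2, the muscle partner of Cox6a1, had no entry and was not searched, nor were Cox4i1, Cox6c and Cox8c. Capitals mark the NRF1 core in Cox6a1 (chr5:115349051-115349150, minus strand) and CAGCTG in Cox8b (chr7:140900447-140900546, minus strand), both from RefSeq, build GRCm38.p6.
Cox6a1: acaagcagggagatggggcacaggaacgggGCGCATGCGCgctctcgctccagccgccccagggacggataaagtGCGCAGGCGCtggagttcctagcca
Cox8b: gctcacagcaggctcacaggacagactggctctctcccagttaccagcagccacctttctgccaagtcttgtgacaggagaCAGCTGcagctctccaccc

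Other mitochondrial genes gave calls between muscles and 0 between genotypes by limma, where 0 to 2 probe sets of each list had an unadjusted p under 0.05. Of the citric acid cycle and pyruvate dehydrogenase list, 18 of 21 genes were measured by 22 probe sets. On average 1 of these was called higher in TA, Pdhb of the pyruvate dehydrogenase complex (0.43 ± 0.09, limma adjusted p = 0.0294), and 0 lower, with a median of 0.18. Of 15 probe sets for adenine nucleotide and phosphate transport, 1 was called higher, for Ckmt2, the mitochondrial creatine kinase of muscle (0.36 ± 0.07, limma adjusted p = 0.0356). In Control alone, Ckmt2 and Mrps34, a mitochondrial ribosomal protein, were called higher in TA.

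Of 70 probe sets for mitochondrial ribosomal proteins, 2 were called higher (Mrpl18 and Mrpl51), and of 18 for protein import 1 was (Timm17a, of the inner membrane translocase). The 12 assembly factor, 16 electron carrier and coenzyme Q and 22 biogenesis regulator probe sets gave 0 calls by limma on average, with 3, 5 and 4 at an unadjusted p under 0.05. Over all probe sets, 0.581% were called higher in TA on average and 13% had an unadjusted p under 0.05. The mitochondrial ribosomal probe sets were lower in Dysf_null for 50 of 70 in TA and 18 of 70 in QF, with medians of -0.14 and 0.11, and none was called.

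Fibre and fat markers also differed between the muscles. Of 14 probe sets for the 11 slow fibre genes, 1 was called higher in TA, for myoglobin (Mb, 0.87 ± 0.10 in its main probe set), and 4 lower, for Myl2, Tpm3, Myl3 and Tnni1. On the authors' scaling 1 was called higher and 2 lower, and with common-median scaling 0 were called. Of 23 other settings, the call was lost in 9 for Tnni1, in 3 each for Myl2, Tpm3 and Myl3, and in 1 for Mb. The fast fibre list ran lower in TA too: 11 of 15 probe sets had a negative difference, with a median of -0.11. By limma 1 was called lower, a probe set of the calcium buffer Pvalb (-0.55 ± 0.10, limma adjusted p = 0.0224), a call lost in 13 of 23 other settings. A brighter Pvalb probe set overlapped between muscles, at 14.05 to 14.50 in QF and 14.19 to 14.50 in TA. The brown fat list, 5 of whose 7 genes were measured, summed to 911.6 to 1343 in QF and 281 to 325.7 in TA. Cidea and Ucp1 were called lower in TA, Zic1 higher, and Elovl3 was at the floor on all arrays. The main Ucp1 probe set was at the floor on all 6 TA arrays. The white fat list summed to 2981 to 3480 in QF and 1430 to 1858 in TA, with a negative difference for 6 of 6 probe sets, 3 of them called (Adipoq, Cidec and Retn). The part of fibre type and fat in the muscle differences, Cox6a1 among them, was not tested.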

How the data were processed

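The 12 arrays' intensities were analysed as deposited by the authors on a linear scale. On each array the mean without the lowest and highest 2% was 200.1 to 200.2, as the values show. How probes were summarised is not given in the sources used here. For the present account 66 control probe sets were removed, and the other 12422 were quantile normalized, floored at intensity 23.025 and put on the log2 scale. The 10331 that passed the floor on 3 or more arrays entered a limma fit (limma 3.58.1, R 4.3.3; group means, 8 residual degrees of freedom, intensity trend, two-sided, Benjamini-Hochberg). Names came from the platform annotation (10833 probe sets with 1 symbol, 396 with several, 1193 unnamed). The fit alone was run on simulated log2 values with changes larger than that of Sdhd. That run did not repeat normalization or the floor and held no correlation between arrays, so it does not cover these. Figures used Python 3.11.15 and matplotlib 3.10.9. The number of arrays limits the precision.

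Members and gene lists were chosen with earlier results of these data known. Named with array values were members called, those with the smallest p per complex and comparison, and Cox isoforms; other members named were chosen after their values were seen. Of these 7 comparisons, those of genotype share arrays with those of muscle. Between the 2 genotypes, deviations of same-numbered arrays correlated at 0.39, 0.711 and 0.66 within QF and 0.182, 0.114 and 0.231 within TA. Across muscles within a genotype the correlations ran from -0.141 to 0.123. No label states a pairing by replicate number, and the main fit held no replicate block.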

Additional observations from a re-analysis of the deposited data

Results flagged for a closer look

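Neutrophil marker genes, which are not members of the respiratory chain, differed between the muscles in their genotype difference. The difference for S100a8 was 3.89 higher in TA than in QF on the log2 scale (SE 0.54, limma adjusted p = 0.0128), and that for S100a9 was 4.56 higher (SE 0.46, limma adjusted p = 0.00115). S100a9 read 4.53, 4.53 and 4.96 in Dysf_null QF and 7.02, 5.96 and 6.48 in Control QF, but 7.32, 7.44 and 7.46 in Dysf_null TA and 4.53, 4.64 and 4.84 in Control TA. The S100a9 interaction was called in each of 24 other settings, and that of S100a8 was not called in 7 of 24 (highest limma adjusted p = 0.0776). Groups of 3 arrays are too small for a test of single arrays that stand apart.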

How the results depend on the processing

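Counts of members called by genotype and for the interaction were 0 in every setting run. For muscle on average, the count was 0 with common-median scaling, 2 without the filter, 5 with array weights, 7 with a replicate block over all arrays (both counts include Cox6a1, called lower), and 1 to 3 when each array was left out in turn. In Control it was 0 with the authors' scaling, common-median scaling, no trend and Control arrays alone, 2 without the filter, and 1 whichever array was left out. In Dysf_null it was 0 with the authors' scaling, common-median scaling, no trend, without both QF arrays numbered 2, with a replicate block within each genotype and with Dysf_null arrays alone, and 0 to 1 when each array was left out. No label says that same-numbered arrays share more than a number. The replicate block within each muscle changed no call between genotypes.

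The median member difference moved in TA by genotype (-0.1009 on the authors' scaling, -0.202 on common-median scaling) and, on common-median scaling, for the genotype average (-0.1289) and interaction (-0.1141). Between muscles it was 0.1018 and 0.2817 on average, 0.1283 and 0.3359 in Control and 0.07013 and 0.2065 in Dysf_null on these 2 scalings, and 0.0271 in Control without the filter. The median of all probe sets moved too on these 2 scalings. It was 0.03 and -0.0499 in TA by genotype, and -0.0695 and 0.09 between muscles on average. Leaving out each array gave -0.06755 to -0.03137 in QF, -0.07716 to -0.03507 in TA and -0.07845 to -0.03601 on average by genotype, -0.03352 to 0.02013 for the interaction, and 0.02582 to 0.06172 between muscles in Dysf_null. Sdhc in TA by genotype turned to -0.002521 with common-median scaling. The cause of these shifts was not tested. Signal near the floor limits Cox8a, Cox5a and Ndufa12.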
